A study of Homo sapiens with 2 samples.

Results

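Beta-1 integrin (gene ITGB1) and 9 of the alpha subunits that pair with it were followed in the RNA that comes down with a protein when an antibody is used to pull it from cells (RNA immunoprecipitation, RIP). The 10 genes were chosen by name: ITGB1, the antigen of the treatment antibody, and ITGA1, ITGA2, ITGA3, ITGA4, ITGA5, ITGA6, ITGA10, ITGA11 and ITGAV. Each has 1 row in the deposited table of 60649 rows, and all 10 reached the minimum of 20 counts summed over both libraries. All cells were of the human breast cancer line MDA-231, labelled wild type, and were given the P4G11 antibody to beta-1 integrin for 16 h without serum. The treatment text also names E7-s without saying what it was for. Both libraries came from treated cells, one after RIP with an antibody to MT1-MMP (the product of MMP14, a matrix metalloproteinase held in the cell membrane) and the other after a mock pull-down by rabbit IgG. Some labels disagree: a sample title has MMP1 where the design text has MT1-MMP, and the mock sample's cell line tag reads MDA-232. No untreated cells and no input RNA were analysed here, so no value below measures an effect of the integrin antibody.

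Integrins are receptors made of 1 alpha and 1 beta chain that tie the cytoskeleton to the matrix outside the cell. The alpha chain largely sets the ligand. With beta-1, the alpha-1, alpha-2, alpha-10 and alpha-11 chains form collagen receptors, alpha-3 and alpha-6 form laminin receptors, alpha-5 and alpha-V form fibronectin receptors, and alpha-4 binds fibronectin and the vascular adhesion protein VCAM1. Alpha-6 also pairs with beta-4, and alpha-V with several other beta chains. In breast cancer cells beta-1 integrins carry adhesion and migration on collagen, laminin and fibronectin, and MT1-MMP cleaves matrix at the same cell surface.

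Windows before annotated starts were at hand for 9 of the 10 genes from RefSeq (GRCh38.p14), 12 windows in all. The 250 bases before the start are printed for 3 of them, 5' to 3' on the strand of the gene. ITGB1 is shown as the antigen, ITGA5 as the gene with the lowest ratio, and ITGA1 because its window is letter for letter that of PELO, whose row overlaps that of ITGA1. Capitals mark the GC box letters GGGCGG or CCGCCC, searched on both strands.
ITGB1 (chr10:32958231-32958480, minus strand): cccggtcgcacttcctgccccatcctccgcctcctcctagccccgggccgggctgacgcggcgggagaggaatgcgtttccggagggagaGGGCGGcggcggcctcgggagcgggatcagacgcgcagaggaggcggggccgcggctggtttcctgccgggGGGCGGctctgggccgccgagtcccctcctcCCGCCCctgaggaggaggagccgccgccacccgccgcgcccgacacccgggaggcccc
ITGA1 and PELO (chr5:52787666-52787915, plus strand): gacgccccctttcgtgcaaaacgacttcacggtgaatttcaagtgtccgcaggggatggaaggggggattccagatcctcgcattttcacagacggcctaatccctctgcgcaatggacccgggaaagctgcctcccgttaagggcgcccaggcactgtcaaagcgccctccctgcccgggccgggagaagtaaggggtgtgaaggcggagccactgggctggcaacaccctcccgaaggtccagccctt
ITGA5 (chr12:54419267-54419516, minus strand): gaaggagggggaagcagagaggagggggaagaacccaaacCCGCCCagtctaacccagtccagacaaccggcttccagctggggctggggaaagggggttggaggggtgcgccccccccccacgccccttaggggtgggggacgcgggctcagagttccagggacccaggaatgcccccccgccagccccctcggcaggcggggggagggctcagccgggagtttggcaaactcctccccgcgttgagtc
The printed ITGB1 window held 3 GC boxes with a GC content of 78.4%, the ITGA5 window 1 with 70.0%, and the ITGA1 window 0 with 62.0%. A second ITGB1 window, before a start inside the gene (chr10:32935559-32935808), held 0 GC boxes at 41.6% GC. At least 1 GC box was present in 4 of the 12 windows of these genes and in 42.6% of all 35116 RefSeq windows, whose median GC content was 58.0%. These matches describe letters and say nothing about binding.

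Total counts were 31636000 for the MT1-MMP RIP and 13003668 for the IgG RIP. A block of ribosomal DNA rows took 10.2% of the first and 92.6% of the second. Ratios are therefore scaled with the trimmed mean method of edgeR (TMM), which sets the typical row to 1: 45.9 MT1-MMP counts to 1 IgG count equal a log2 ratio of 0. By total counts (CPM with no further scaling, called plain CPM) every log2 ratio is 4.24 higher. Each side has 1 library, so no replicate spread can be measured and no p-value is given. Every interval is an exact 95% interval for counting error only. The labels name no molecular identifiers, so several reads may come from 1 molecule. A row is called higher on one side when no part of its interval comes within 2-fold of the typical row. Antibody and library cannot be told apart, nor can more RNA pulled down be told from more cells or more RNA per cell. Of the markers of a mesenchymal breast cancer line, CD44 had 25209 MT1-MMP and 432 IgG counts and VIM 1813 and 721, while the epithelial markers CDH1 and EPCAM had 17 and 0 and 46 and 1. The 6 luminal or epithelial markers summed to 1597 and 246, most of it from KRT8 (1051 and 170). Of the others, ESR1 had 369 and 3, PGR 64 and 0, and KRT18 50 and 72. The 4 leukocyte markers summed to 56 MT1-MMP counts and 1 IgG count, the 2 erythroid ones to 6 and 0. The 3 endothelial markers summed to 3488 and 26, nearly all from PECAM1 (3414 and 24), with CDH5 at 26 and 2 and VWF at 48 and 0. Their part in the results below was not tested.

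Of the 10 beta-1 integrin genes, 2 were called under TMM, a laminin and a fibronectin receptor chain. ITGA3 and ITGA5 were higher in the IgG RIP under TMM, although not by plain CPM, no gene of the 10 was higher in the MT1-MMP RIP, and 8 were neither. Neither does not mean equal to the typical row: the intervals of ITGB1, ITGA1 and ITGA2 exclude a log2 ratio of 0, and those of ITGA4, ITGA10 and ITGA11 are wide. These exclusions hold for TMM over rows with at least 20 summed counts. TMM over rows with at least 1 or 100 summed counts shifts every log2 ratio by 0.365 or -0.418. The ITGB1 interval then includes 0 on the first scale, and those of ITGA1 and ITGA2 on the second. Over all 14318 protein-coding rows tested, 16.2% were called on the IgG side and 7.24% on the MT1-MMP side, and over all 25933 tested rows 12.8% and 5.9%. The median log2 ratio was -0.11 over the 10 genes and 0.05 over the protein-coding rows. By plain CPM, 8 of the 10 were higher in the MT1-MMP RIP and 0 in the IgG RIP, against 86.1% and 0.691% of protein-coding rows and 85.8% and 0.902% of all tested rows, so the counts of calls among the 10 genes were near the background on both scales.

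**Figure D1:**
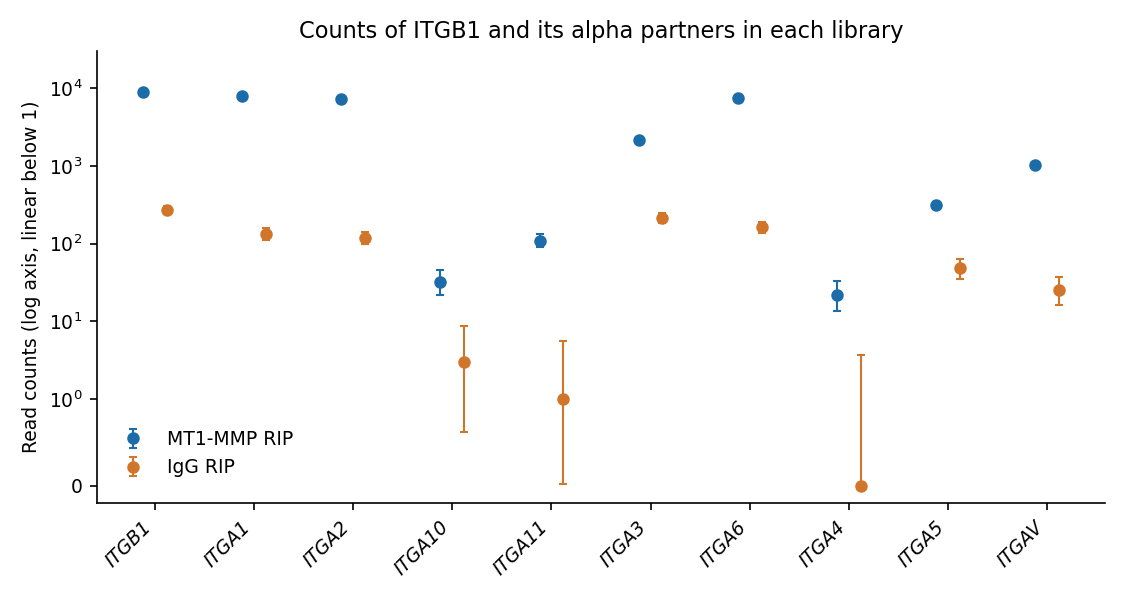
Read counts of ITGB1 and 9 alpha subunits in the MT1-MMP RIP library (blue) and the IgG RIP library (orange), 1 library each, on a log axis that is linear below 1, with exact 95% Poisson intervals as bars. The genes run from ITGB1 at 8940 and 269 counts to ITGA4 at 22 and 0.

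ITGB1 encodes the chain shared by all of these receptors, and it had the most counts of the 10 genes in both libraries, 8940 in the MT1-MMP RIP and 269 in the IgG RIP. The gene lies on chromosome 10 (GRCh38, 32900318 to 32958230). Per kb of gene span (start to end, introns included) these are 154.4 and 4.64 counts. Its log2 ratio of -0.47 (-0.64 to -0.29) lay below the typical row by less than 2-fold. The scale decides this sign: the value was 3.77 by plain CPM, and 0.17 when the ribosomal block was left out of the totals. Of 4508 protein-coding rows with at least 1000 summed counts, the nearest to ITGB1 in log2 ratio, over these 2 libraries, were EP400 (2237 and 67 counts), CDC123 (1275 and 38) and SUB1 (1280 and 38), each within 0.01. EP400 is a chromatin remodeller, CDC123 an assembly factor of translation initiation and SUB1 a transcription coactivator.

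A pseudogene and a noncoding neighbour of ITGB1, named after their values were seen, lay on opposite sides of the typical row. ITGB1P1, a pseudogene of 1068 bases on chromosome 19 (14622221 to 14623288), had 132 MT1-MMP and 40 IgG counts, a log2 ratio of -3.81 (-4.32 to -3.25) and 0.43 (-0.08 to 0.99) by plain CPM. It equalled 1.48 counts per 100 ITGB1 counts in the MT1-MMP RIP and 14.9 in the IgG RIP. A pseudogene row can share reads with its parent gene, and the treatment of reads with several matches is not given in the labels, so both rows are uncertain to that extent. With its counts added, the ITGB1 log2 ratio was -0.65 (-0.81 to -0.48). ITGB1-DT, a long noncoding RNA whose RefSeq span of 99.6 kb begins 24.3 kb beyond that of ITGB1 (chromosome 10, 32982551 to 33082102), had 7051 and 33 counts. It was called higher in the MT1-MMP RIP (2.20, 1.73 to 2.76), at 78.9 counts per 100 ITGB1 counts there and 12.3 in the IgG RIP. Span ran with this contrast: protein-coding rows with spans of 0.387 to 6.68 kb had a median log2 ratio of -2.73, and those of 73.6 to 111.7 kb 0.72. ITGB1P1 and ITGB1-DT are not protein-coding, and the part of span in their ratios was not tested.

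ITGA1 and ITGA2, chains of collagen receptors, had the highest ratios among the members with 10 or more IgG counts. ITGA1 had 7979 MT1-MMP and 132 IgG counts (chromosome 5, 52787916 to 52959209). ITGA2, whose gene follows on the same chromosome (52989352 to 53094779), had 7301 and 118. Their log2 ratios were nearly equal, 0.39 (0.15 to 0.66) for ITGA1 and 0.42 (0.17 to 0.71) for ITGA2. There were 109.3 ITGA1 counts per 100 ITGA2 counts in the MT1-MMP RIP and 111.9 in the IgG RIP, a ratio of 0.977 whose interval, 0.754 to 1.26, includes 1. PELO, a ribosome rescue factor, starts at the same base as ITGA1 and lies wholly within its span. Its 1295 and 28 counts equal 16.2% and 21.2% of those of ITGA1, and reads there cannot be assigned to one of them. With the PELO counts taken off, which assumes that the ITGA1 row holds them all, ITGA1 stood at 0.48 (0.21 to 0.78). Of the other counted rows overlapping members, the pseudogenes B3GNTL1P1 in ITGA1 and AK3P5 in ITGB1 had 9 and 3 and 131 and 3 counts, and GPR84-AS1 over ITGA5 had 1 and 0.

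The other collagen receptor chains were scarce. ITGA11, known from fibroblasts, had 109 MT1-MMP counts and 1 IgG count over a span of 135.6 kb, a log2 ratio of 0.67 (-1.26 to 6.56). ITGA10, known from cartilage, had 32 and 3 over 18.8 kb, a log2 ratio of -2.31 (-3.78 to 0.25). These intervals overlap. Under TMM, a call in the MT1-MMP direction would have needed at least 514 MT1-MMP counts beside 1 IgG count and 808 beside 3, so the depth did not allow one for either gene on that scale. By plain CPM ITGA11 was called higher in the MT1-MMP RIP (4.91, 2.98 to 10.8) and ITGA10 was not called (1.93, 0.46 to 4.48).

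**Figure D2:**
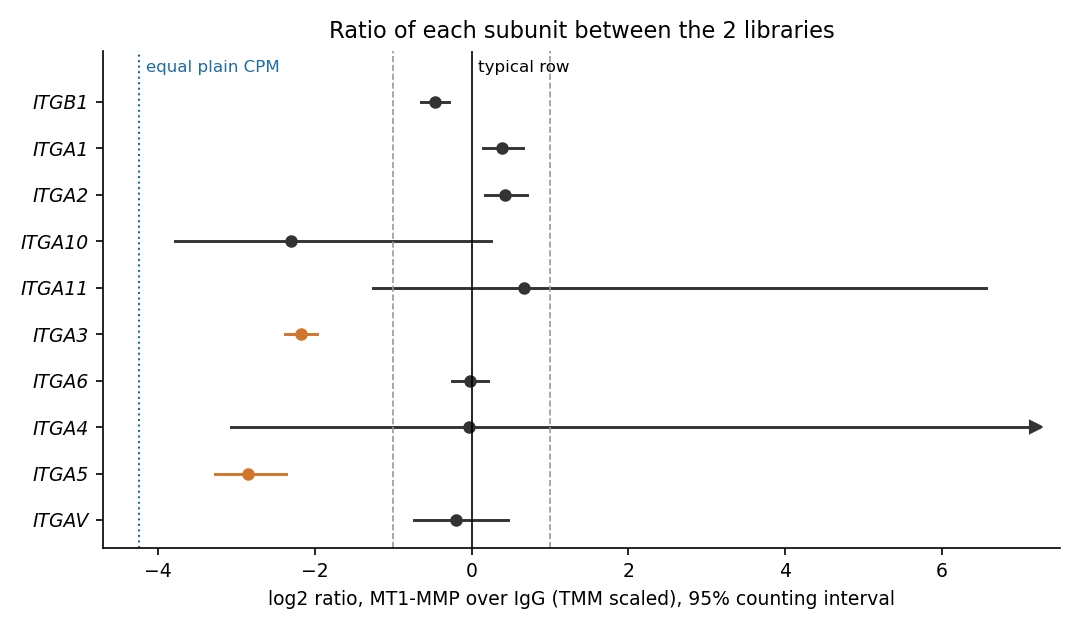
TMM-scaled log2 ratio of MT1-MMP RIP over IgG RIP for each gene, with exact 95% counting intervals; the solid line marks the typical row, the dashed lines 2-fold and the dotted line equal plain CPM. ITGA3 and ITGA5 (orange) lie wholly beyond 2-fold on the IgG side of the typical row but to the right of equal plain CPM, and the intervals of ITGA4, ITGA10 and ITGA11 are wide because they rest on 0, 3 and 1 IgG counts.

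The laminin receptor chains differed from each other beyond counting error. ITGA6 (chromosome 2, 172427336 to 172506459) had 7326 MT1-MMP and 162 IgG counts, at the level of the typical row (log2 ratio -0.03, -0.25 to 0.21). ITGA3 (chromosome 17, 50056110 to 50090481) had 2161 and 213 counts, and was higher in the IgG RIP by 4.53-fold (log2 ratio -2.18, -2.38 to -1.97). By plain CPM both were higher in the MT1-MMP RIP, at 4.21 (3.99 to 4.45) and 2.06 (1.86 to 2.27). The comparison of these chains with each other needs no scale. There were 29.5 ITGA3 counts per 100 ITGA6 counts in the MT1-MMP RIP and 131.5 in the IgG RIP, a ratio of 0.224 (0.181 to 0.278). ITGA6-AS1, inside the ITGA6 span, held 109 and 8 counts, 1.49% and 4.94% of those of ITGA6.

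So did the fibronectin receptor chains ITGA5 and ITGAV. ITGA5, the alpha chain of the main fibronectin receptor (chromosome 12, 54395261 to 54419266), had 309 MT1-MMP and 48 IgG counts, the lowest log2 ratio of the 10 genes, -2.85 (-3.28 to -2.36), or 7.19-fold higher in the IgG RIP. By plain CPM its log2 ratio was 1.39 (0.96 to 1.87), on the MT1-MMP side, with an interval that reached below 2-fold. ITGAV (chromosome 2, 186590056 to 186680901) had 1021 and 25 counts and a log2 ratio of -0.20 (-0.74 to 0.47). Per 100 ITGAV counts there were 30.3 ITGA5 counts in the MT1-MMP RIP and 192.0 in the IgG RIP, a ratio of 0.158 (0.0917 to 0.266). ITGA4, a chain best known from leukocytes, had 22 MT1-MMP counts and 0 IgG counts. A count of 0 allows up to 3 counts, or 0.231 CPM, beside 0.695 CPM in the MT1-MMP RIP. The interval of its log2 ratio has no upper end, and its lower end was 1.17 by plain CPM and -3.07 under TMM. CERKL, which overlaps the end of ITGA4, held 82 and 2 counts.

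Set against ITGB1 itself, a comparison that is free of the scaling, the alpha subunits fell into 3 groups. ITGA1, ITGA2 and ITGA6 took more counts relative to ITGB1 in the MT1-MMP RIP. ITGA3 and ITGA5 took fewer. For ITGA4, ITGA10, ITGA11 and ITGAV the interval included 1. There were 89.3 ITGA1 counts per 100 ITGB1 counts in the MT1-MMP RIP and 49.1 in the IgG RIP, a ratio of 1.82 (1.47 to 2.26). For ITGA2 the values were 81.7 and 43.9, a ratio of 1.86 (1.49 to 2.34), and for ITGA6 81.9 and 60.2, a ratio of 1.36 (1.11 to 1.67). For ITGA3 they were 24.2 and 79.2, a ratio of 0.305 (0.253 to 0.369). For ITGA5 they were 3.46 and 17.8, a ratio of 0.194 (0.139 to 0.275). ITGAV stood at 11.4 and 9.29, a ratio of 1.23 (0.810 to 1.94), which leaves a difference in either direction within counting error. The 9 intervals were not adjusted for their number. Nor do these ratios take gene span into account, which moved with the ratio, as described below. ITGA1, ITGA2 and ITGA6 span 171.3, 105.4 and 79.1 kb and ITGAV 90.8 kb, against 57.9 kb for ITGB1, 34.4 kb for ITGA3 and 24.0 kb for ITGA5.

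**Figure D3:**
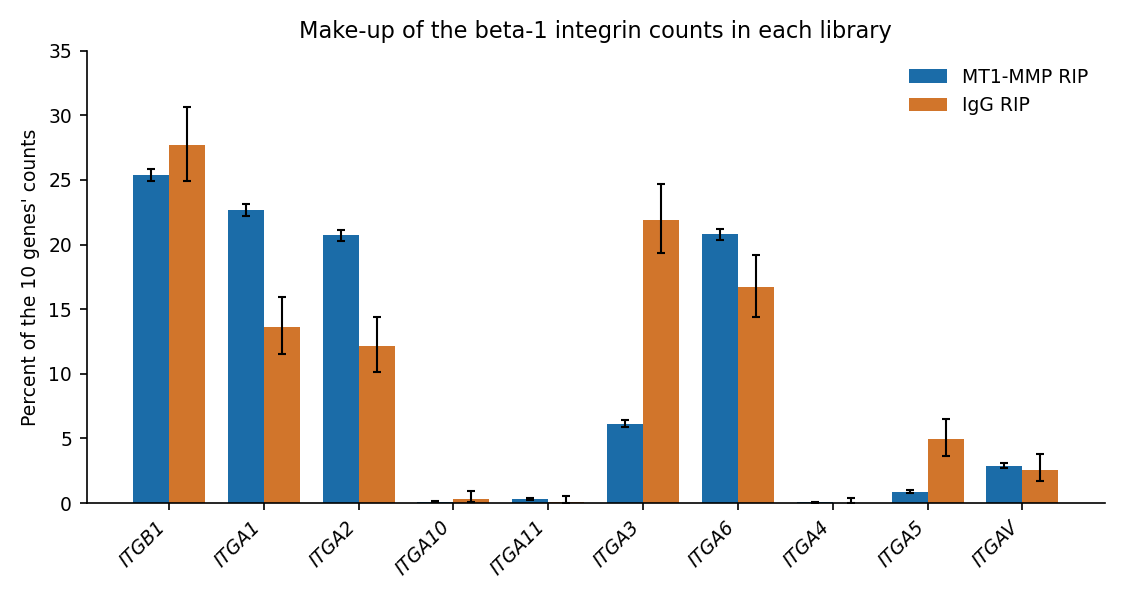
Percent of the summed counts of the 10 genes held by each gene in the MT1-MMP RIP library (blue, 35200 counts) and the IgG RIP library (orange, 971 counts), with exact 95% intervals. ITGA3 holds 6.14% and 21.9%, while ITGB1 holds 25.4% and 27.7% with overlapping intervals.

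The make-up of the receptor set differed accordingly. The 10 genes summed to 35200 MT1-MMP and 971 IgG counts, 0.124% and 0.101% of the counts outside the ribosomal block. ITGB1 held 25.4% (24.9 to 25.9) of them in the MT1-MMP RIP and 27.7% (24.9 to 30.6) in the IgG RIP. Of the counts of the 9 alpha subunits, the collagen receptor chains held 58.7% (58.1 to 59.3) in the MT1-MMP RIP and 36.2% (32.6 to 39.9) in the IgG RIP. The laminin receptor chains held 36.1% (35.5 to 36.7) and 53.4% (49.6 to 57.2), and ITGA4, ITGA5 and ITGAV together 5.15% (4.88 to 5.42) and 10.4% (8.24 to 12.9). ITGA3 and ITGA5 alone held 9.41% (9.06 to 9.77) and 37.2% (33.6 to 40.9) of the alpha counts. The other chains of their classes did not hold more in the IgG RIP. Of the counts of all 10 genes, ITGA6 held 20.8% and 16.7%, ITGAV 2.90% and 2.57%, and ITGA4 0.0625% and 0%. In order of counts, the MT1-MMP RIP ran ITGB1, ITGA1, ITGA6, ITGA2, ITGA3, ITGAV, ITGA5, ITGA11, ITGA10, ITGA4. The Poisson intervals of ITGA6 and ITGA2 there overlap (7159 to 7496 and 7134 to 7470). In the IgG RIP ITGA3 stood second, behind ITGB1, and ITGA5 was ahead of ITGAV, with intervals of 35.4 to 63.6 and 16.2 to 36.9 counts that overlap. Overlap of separate intervals does not test an order, and neither pair was compared directly within a library. Per kb of span ITGB1 was first in the MT1-MMP RIP, and ITGA3 had 62.9 counts per kb there. In the IgG RIP ITGA3 was first, at 6.20 counts per kb, with ITGB1 next.

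Gene span moved with the ratio in these libraries. Protein-coding rows were sorted into 10 span classes of nearly equal size, whose median log2 ratios ran from -2.73 for the shortest spans to 1.47 for the longest. ITGA3 (34.4 kb) and ITGA5 (24.0 kb) have shorter spans than every other member except ITGA10 (18.8 kb), and ITGA1 (171.3 kb) has the longest. Rows of the span class of ITGA3 (26.4 to 36.9 kb) had a median log2 ratio of -0.20, with 12.8% higher in the IgG RIP. Those of the class of ITGA5 and ITGA10 (18.3 to 26.4 kb) had a median of -0.44 and 15.4%. ITGA3 lay 1.98 below its median and ITGA5 2.41 below, lower than all but 7.26% and 4.33% of rows in those classes. ITGB1, in the class from 50.9 to 73.6 kb, lay 0.85 below a median of 0.38. ITGA6, ITGA4, ITGA2 and ITGAV share the class from 73.6 to 111.7 kb, whose median was 0.72. ITGA2 lay 0.30 below it, ITGA6 0.75 and ITGAV 0.92. ITGA1 lay 0.59 below the median of its class, 0.99. All 10 genes were below the median of their span class. The intervals of ITGA3 and ITGA5 lay wholly below its lower quartile. ITGB1, ITGA4, ITGA6, ITGA10 and ITGAV were below the quartile with intervals that reach above it. ITGA1 lay at its lower quartile (0.39 against 0.40), and above it (0.48) if its row holds all the PELO counts and these are taken off. These differences are the same under any single scale factor. The position of ITGA4, ITGA10 and ITGA11 depends on the 0.5 counts added to each library before the ratio was taken. What the span stands for in these libraries was not tested.

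**Figure D4:**
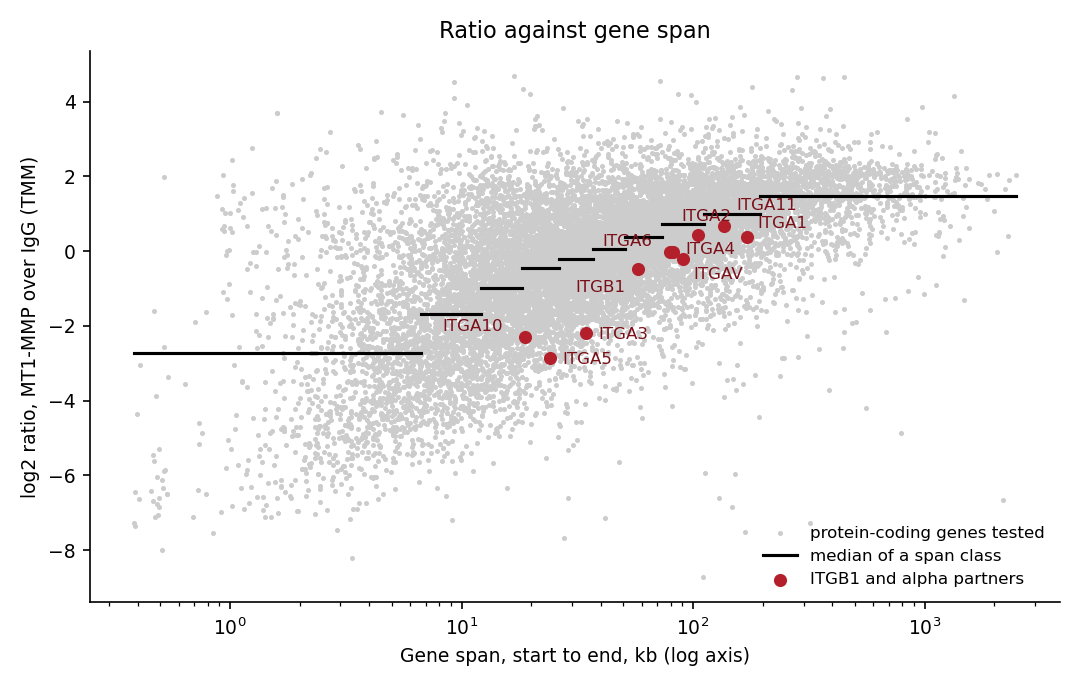
TMM-scaled log2 ratio of MT1-MMP RIP over IgG RIP against gene span in kb (log axis) for 14318 protein-coding genes (grey), with the median of each of 10 span classes (black lines) and the 10 integrin genes (red). The integrin genes follow the upward course and lie below the line of their class, ITGA3 by 1.98 and ITGA5 by 2.41.

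The remaining integrin subunits gave few calls under TMM. ITGA7, ITGA8 and ITGA9, which also pair with beta-1, had 36 and 0, 99 and 2, and 327 and 3 counts, and none was called. Under TMM a call in the MT1-MMP direction needed at least 341 MT1-MMP counts beside 0 IgG counts, 514 beside 1 and 808 beside 3. The depth therefore did not allow such a call for these 3 genes. Of the 13 alpha and beta chains that form receptors without beta-1, 11 were tested. ITGB4, the partner of alpha-6 in hemidesmosomes, was the single one higher in the IgG RIP (173 and 43 counts, log2 ratio -3.52, -4.00 to -2.995, but 0.71 by plain CPM), and 0 were higher in the MT1-MMP RIP. Of the 11, ITGAE, ITGAL, ITGAM, ITGAX, ITGB3, ITGB4, ITGB6 and ITGB7 had fewer than 341 MT1-MMP counts, the least for a TMM call in the MT1-MMP direction. ITGB2 (489 and 17 counts) and ITGB8 (554 and 5) had fewer than the 808 needed beside 3 IgG counts. Apart from ITGB4, these genes were named after their values were seen. The median of the 11 was 0.15. By plain CPM, 9 of the 11 and all 3 of the other beta-1 partners were higher in the MT1-MMP RIP. ITGB5, a partner of alpha-V, had 4384 and 44 counts (log2 ratio 1.10, 0.69 to 1.58), and was named after its values were seen.

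Genes of activators and adaptors of the integrin tail were called on both sides under TMM. Of 32 activators and adaptors, 30 were tested, with 4 higher in the MT1-MMP RIP and 7 in the IgG RIP (median log2 ratio 0.20), beside 7.24% and 16.2% of protein-coding rows. By plain CPM the counts were 25 and 0, beside 86.1% and 0.691%. The called genes with the most counts were RSU1 (8635 MT1-MMP and 59 IgG counts, log2 ratio 1.66, 1.30 to 2.07), LIMS1 (5124 and 38, 1.54, 1.10 to 2.06) and RAP1A (4616 and 32, 1.63, 1.15 to 2.20). Ranking by summed counts favours genes with many MT1-MMP counts, and the 7 genes called in the IgG RIP had fewer. Of those 7, FLNA had the most, 1149 and 785 (-4.97, -5.10 to -4.84, and -0.73 by plain CPM). RSU1 and LIMS1 belong to the complex of integrin-linked kinase, and RAP1A is a small GTPase that activates integrins. Integrin-linked kinase itself, ILK, had 187 and 49 counts and was higher in the IgG RIP (-3.60, -4.05 to -3.10, but 0.64 by plain CPM). Span ran with this split: RSU1, LIMS1 and RAP1A span 226.8, 153.6 and 174.7 kb, in classes with medians of 1.47, 0.99 and 0.99, and ILK spans 7.10 kb, in a class with a median of -1.67 and 38.7% higher in the IgG RIP. TLN1, the talin that links integrin tails to actin, was listed at 6 and 0 counts, below the minimum. That value may depend on the unknown counting settings and is not a measure of absence. Its paralog TLN2 had 2294 and 15 (1.69, 1.01 to 2.58). FLNA, ILK, TLN1 and TLN2 were named after their values were seen.

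Kinases and adaptors downstream of integrins had 5 of 24 genes higher in the MT1-MMP RIP and 2 in the IgG RIP (median 0.17), or 23 and 0 by plain CPM, beside the same background shares. ASAP1, a GTPase-activating protein of focal adhesions, had 40965 and 256 counts (1.80, 1.62 to 1.98). PTK2, the focal adhesion kinase, had 40623 and 300 (1.56, 1.397 to 1.73), and DOCK1, an activator of RAC1, 16875 and 137 (1.42, 1.18 to 1.68). These 3 genes have spans of 391.6, 344.2 and 547.1 kb, and protein-coding rows in the class with the longest spans had a median log2 ratio of 1.47, with 39.0% higher in the MT1-MMP RIP. The 2 genes called in the IgG RIP, RAC1 (1409 and 110, -1.85) and GIT1 (72 and 16, -3.39), had fewer summed counts. By plain CPM they stood at 2.39 and 0.85, and both were named after their values were seen.

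Of 23 matrix ligands of beta-1 integrins, 19 were tested, with 1 higher in the MT1-MMP RIP and 7 in the IgG RIP (median -0.18), beside 7.24% and 16.2% of protein-coding rows. Their median span was 89.3 kb, in a class with a median of 0.72, with 8.03% higher in the MT1-MMP RIP and 2.30% in the IgG RIP. By plain CPM the counts were 15 and 0, beside 86.1% and 0.691%. The fibronectin gene FN1 had 2905 and 267 counts (-2.08, -2.26 to -1.89) and the thrombospondin gene THBS1 1883 and 549 (-3.74, -3.88 to -3.60), against 2.16 and 0.49 by plain CPM. TNC, tenascin-C, was the single ligand higher in the MT1-MMP RIP (3537 and 16, 2.22, 1.57 to 3.08). FN1 (75.2 kb) and TNC (98.6 kb) lie in the span class with a median of 0.72, and THBS1 (18.4 kb) in one with a median of -0.44. The collagen genes COL1A2 and COL3A1 were listed at 0 in both libraries, and were named after their values were seen.

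Partners in the membrane and in traffic had lower medians than all protein-coding rows (0.05). Of 17 lateral membrane partners, 16 were tested, with 0 higher in the MT1-MMP RIP and 6 in the IgG RIP (median -1.08), beside 7.24% and 16.2% of protein-coding rows. Their median span was 24.2 kb, in a class with a median of -0.44 and 15.4% higher in the IgG RIP. By plain CPM the counts were 11 and 1, beside 86.1% and 0.691%. SLC3A2, the heavy chain of CD98, had 593 and 42 counts (-1.72, -2.15 to -1.21), BSG, the metalloproteinase inducer, 184 and 83 (-4.38, -4.75 to -3.98), and the tetraspanin CD81 191 and 31 (-2.92, -3.45 to -2.30). Their plain CPM log2 ratios were 2.52, -0.14 and 1.32. Of 23 genes of integrin traffic, 21 were tested, with 1 higher in the MT1-MMP RIP and 7 in the IgG RIP (median -1.07), or 17 and 0 by plain CPM, beside the same shares. Their median span was 34.8 kb, in a class with a median of -0.20 and 12.8% higher in the IgG RIP. NUMB, an endocytic adaptor, had 7076 and 58 counts (1.398, 1.04 to 1.81), the clathrin heavy chain CLTC 4109 and 265 (-1.57, -1.75 to -1.38), and the recycling protein EHD1 1209 and 69 (-1.40, -1.74 to -1.02), the last 2 at 2.67 and 2.84 by plain CPM.

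**Figure D5:**
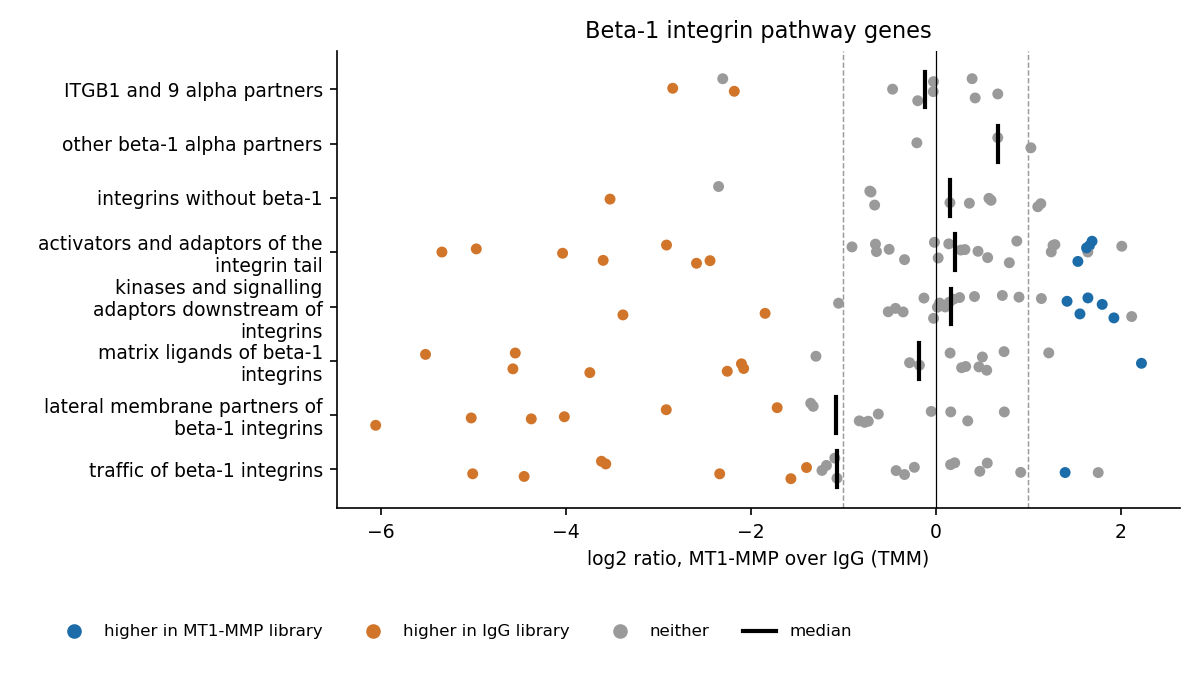
TMM-scaled log2 ratios of the tested genes in each list of beta-1 integrin biology, 1 point per gene, with the median as a black bar; blue points are higher in the MT1-MMP RIP, orange in the IgG RIP and grey neither. The medians run from -1.08 for the lateral membrane partners to 0.67 for the 3 other beta-1 alpha partners, against -0.11 for the 10 integrin genes.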

How the data were processed

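RNA was measured by sequencing after RIP in 2 libraries of MDA-231 cells. The authors deposited whole-number read counts per gene row, not normalized; the submitters' processing notes name hg38 and the tools cutadapt, HISAT2 and SAMtools. Not given in the sources used here are versions, counting tool, annotation, strand setting and the handling of reads with several matches, so reads in introns and overlapping or antisense genes may enter a row. Columns were tied to libraries by the column names in the labels. The 959 rows repeating an earlier row's name and counts were left out of comparisons but not of totals. Symbols were looked up in RefSeq's gene table for GRCh38.p14, the same build.

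The 25933 rows with at least 20 summed counts were scaled with TMM factors computed on them (edgeR 4.0.16). Ratios carry exact Clopper-Pearson 95% intervals conditional on the summed count (SciPy 1.17.1), and log2 ratios add 0.5 counts. Ratios between 2 genes carry exact conditional odds ratio intervals. The intervals and calls were tested on simulated Poisson counts, the counting model that the intervals assume. That test covers neither repeated reads of 1 molecule nor spread between libraries. Members and 7 gene lists (134 genes) were chosen with earlier results of these data known. Named were all members, counted rows overlapping them, up to 3 called genes per list with the most counts, the 3 rows nearest ITGB1 in ratio, and a few rows named after their values were seen, as stated beside them. Alternatives were plain CPM, DESeq2 1.42.0 size factors, upper quartile factors, TMM over protein-coding rows, other minimums, folds and added counts, and, chosen after seeing the data, totals outside the ribosomal DNA block and counts of overlapping or copied rows added or taken off.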

Additional observations from a re-analysis of the deposited data

How the results depend on the processing

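The scale is the main limit. By plain CPM the calls among the 10 genes changed from 2 to 0 in the IgG RIP and from 0 to 8 in the MT1-MMP RIP, ITGA3 and ITGA5 reversed to 2.06 and 1.39, ITGB1 moved to 3.77, and the tested rows called changed from 3323 to 234 and from 1529 to 22244. With DESeq2 size factors, upper quartile factors, minimums of 1 or 100 counts, a 1.5-fold rule and totals outside the block, ITGA3 and ITGA5 remained the 2 calls. With a 4-fold rule ITGA5 was the 1 call left, with 1977 rows called in the IgG RIP and 57 in the MT1-MMP RIP. The rows called in the MT1-MMP RIP numbered 2712 and 625 with minimums of 1 and 100 counts, 2881 with a 1.5-fold rule and 3733 with totals outside the block. For the minimums of 1 and 100 counts, TMM was computed again on the rows kept. It gave 35.7 and 61.4 MT1-MMP counts to 1 IgG count instead of 45.9, so filter and scale changed together. ITGB1 stood at 0.17 with totals outside the block and at -0.65 with the ITGB1P1 counts added. Comparisons between 2 of the genes in the same libraries do not depend on the scale. IgG depth limits ITGA4, ITGA10 and ITGA11. No paired analysis was possible because each group has 1 library.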
